A study of Mus musculus with 21 samples.

Results

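Integrins are the transmembrane receptors by which endothelial cells hold on to their basement membrane and to other matrix. The 10 integrin subunit genes described here, Itgb1, Itgb3, Itgb4, Itgb5, Itga1, Itga2, Itga5, Itga6, Itgav and Itga9, were taken by gene symbol. The list was chosen with earlier results of these data known. The members are 10 of the 45706 genes in the deposited table, and all 10 passed the filter that left 13503 genes for testing (at least 1 TPM in at least 10 libraries).

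The RNA came from CD31+ cells of E0771.lmb tumours, which arise from injected mouse mammary tumour cells, in adult wild-type mice (WT, 11 libraries from 9 tumours) and in Shb iECKO mice (KO, 10 libraries from 8 tumours). The KO mice carried Shb flox/flox with Cdh5-CreERt2, a tamoxifen-activated Cre recombinase driven by the promoter of the endothelial cadherin gene, and Shb encodes an adaptor of tyrosine kinase receptors. Tumours of both genotypes were grown after tamoxifen injection and taken on day 14 to 16. The same protocol text mentions a Vav1-cre line and a magnetic step for CD45+ cells before the CD31 sort, and no library is labelled with that line. Libraries were made in 4 experiments. By the table's column headers there were 3 WT and 2 KO libraries in experiment 1, 3 and 4 in experiment 2, 2 and 2 in experiment 3, and 3 and 2 in experiment 4. The labels do not say which libraries share a tumour, so p-values partly measure the spread between samples of 1 tumour.

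An integrin is a heterodimer of an alpha and a beta subunit, and the pairing sets the ligand. The Itgb1 product pairs with the products of Itga1 and Itga2 to bind collagens, of Itga5 to bind fibronectin, of Itga6 to bind laminins and of Itga9 to bind tenascin-C, Svep1 and other ligands. The Itgb4 product pairs only with that of Itga6, in a second laminin receptor, and the products of Itgb3 and Itgb5 pair with that of Itgav in receptors for vitronectin and other RGD-bearing proteins. Because alpha subunits with several partners are shared, a transcript level says nothing of how much of each heterodimer a cell carries.

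Promoter sequence was matched by symbol in the RefSeq table of GRCm38.p6 for 7 of the 10 members. Those of Itgb1 and Itga5, whose levels moved together between libraries, and of Itgb5, which moved against them, are shown as the 250 bases before the start, 5′ to 3′ on the gene's strand. Capitals mark the GC box GGGCGG (the site of Sp factors, read on both strands, so also as CCGCCC) and the ETS core AGGAAG (also as CTTCCT).
Itgb1, chr8:128685404-128685653, plus strand: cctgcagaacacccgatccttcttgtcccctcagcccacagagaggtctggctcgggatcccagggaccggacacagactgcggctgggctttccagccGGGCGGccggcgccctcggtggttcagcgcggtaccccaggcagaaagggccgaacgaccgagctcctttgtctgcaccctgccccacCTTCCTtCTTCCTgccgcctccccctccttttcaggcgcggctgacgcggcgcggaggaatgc
Itga5, chr15:103366792-103367041, minus strand: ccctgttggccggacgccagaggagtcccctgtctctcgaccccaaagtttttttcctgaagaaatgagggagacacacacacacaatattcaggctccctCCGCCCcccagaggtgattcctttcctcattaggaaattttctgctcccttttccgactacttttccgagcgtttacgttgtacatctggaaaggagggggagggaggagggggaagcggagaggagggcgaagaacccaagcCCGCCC
Itgb5, chr16:33829415-33829664, plus strand: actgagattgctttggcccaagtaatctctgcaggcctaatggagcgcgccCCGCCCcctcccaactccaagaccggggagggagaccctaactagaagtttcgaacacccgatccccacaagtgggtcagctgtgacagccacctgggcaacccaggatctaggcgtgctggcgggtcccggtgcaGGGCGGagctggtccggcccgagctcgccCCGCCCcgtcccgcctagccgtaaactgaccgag
A GC box was present in 3 of the 7 promoters (Itgb1, Itga5 and Itgb5), against 32.7% of all 32851 promoters of the same length. The ETS core was present in 3 of 7 (Itgb1, Itga1 and Itgav) against 29.5% of all. The CpG form of that core, CGGAAG, was found in 1 (Itgav) against 13.6%, and neither the AP-1 letters TGANTCA (6.75% of all) nor TATAAA (12.4%) was found in any of the 7. No overlap between these motifs was removed. The Itga9 window counted here (chromosome 9, 118711442 to 118711691) precedes a RefSeq start that lies inside the gene's GENCODE coordinates (118606690 to 118901003). GC content was 68.0% in the Itgb1 window, 55.6% in that of Itga5 and 65.2% in that of Itgb5, with a median of 52.4% over all promoters. The GC box letters were thus present both in promoters of genes that moved together and in that of Itgb5, and a match is a description of letters, not of a bound site.

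Libraries differed in endothelial content as far as transcripts show it. Summed TPM of 18 pan-endothelial markers ran from 719 to 14491 in WT and from 2071 to 13602 in KO. Pecam1, the gene of CD31, was lowest in WT replicate 2 of experiment 4 (95.04 TPM), KO replicate 2 of experiment 4 (242 TPM) and WT replicate 1 of experiment 2 (461 TPM), against a median of 1235 TPM. Macrophage and fibroblast markers were highest in WT replicate 2 of experiment 3. Shb was 37.3 ± 18.1 TPM (SD) over 11 WT libraries and 22.8 ± 16.6 TPM (SD) over 10 KO libraries, and its log2 difference of -0.91 (SE 0.33) did not pass limma over all genes (adjusted p = 0.820). In experiment 1 Shb was at 36.2 and 52.7 TPM in the libraries labelled KO and at 34.9, 17.2 and 74.3 TPM in WT, and in experiment 3 it was at 13.0 and 40.4 TPM against 31.8 and 18.2 TPM. Shb therefore did not set the KO label apart in these 2 experiments, although a gene's TPM also counts exons outside the deleted part. In bulk RNA, fewer cells of a type and less RNA per cell cannot be told apart. Of the 21 columns, 2 share the header of KO replicate 3 of experiment 2 and are called 3a and 3b. The sample titles give 3 KO samples each to experiments 2 and 4, and no column is headed as KO replicate 3 of experiment 4. Both columns were used under their header, although values in 3b are written with 6 decimals, like those of experiment 4, and those of 3a with 2, like the rest.

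The 10 members made up most of the integrin RNA of these cells. They held 88.1 ± 4.95% (SD, n = 21) of the TPM summed over 27 integrin subunit genes, and from 71.6% to 92.4% in single libraries. TPM is scaled by gene length, so levels of different genes can be set side by side. Itgb1 and Itga6 filled the first 2 places in all 21 libraries, and Itga2 stood in the last 2 places in all 21. Itgb5 stood in the last 2 in 18.

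Among the beta subunits, Itgb1 (ENSMUSG00000025809, chromosome 8, 128685654 to 128733200 in GRCm38), the common partner of most alpha subunits, was the highest. Its level in WT ran from 337 to 914 TPM with a median of 561, and in KO from 163 to 823 TPM with a median of 595. The ranges overlapped, with the lowest values in KO, and the means were 568 ± 147 TPM (SD, n = 11) and 541 ± 221 TPM (SD, n = 10). In the WT mean it ranked 125 among the 13503 genes tested. It took 74.0 ± 5.53% (SD, n = 11) of the TPM of the 4 beta members in WT and 70.9 ± 5.10% (SD, n = 10) in KO.

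Itgb3 (ENSMUSG00000020689, chromosome 11, 104608000 to 104670476), the beta subunit of the vitronectin receptor, was next. It ran from 29.6 to 261 TPM in WT (median 100.3) and from 26.0 to 206 TPM in KO (median 162). Both minima were libraries of experiment 4 with low Pecam1. The means were 123 ± 63.3 TPM (SD) over 11 WT libraries and 139 ± 60.8 TPM (SD) over 10 KO libraries. Platelets also make Itgb3, as the partner of the product of Itga2b. Itga2b was at 9.89 ± 10.1 TPM (SD) over 11 WT libraries and 14.4 ± 14.5 TPM (SD) over 10 KO libraries. Pf4, another platelet marker, was at 41.3 ± 114 TPM (SD) over 11 WT libraries and 7.23 ± 15.3 TPM (SD) over 10 KO libraries. The part of platelets in the level of Itgb3 was not tested.

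Itgb4 (ENSMUSG00000020758, chromosome 11, 115974709 to 116008412), the laminin receptor subunit known from hemidesmosomes of epithelia and also present in endothelium, was lower. It ran from 9.59 to 135 TPM in WT (median 60.8) and from 10.2 to 119 TPM in KO (median 72.7). The 2 lowest values were again the low-Pecam1 libraries of experiment 4, and they included WT replicate 2, the library with the most tumour epithelium marker TPM (272). In that library Itgb4 was at 9.59 TPM, its lowest of all 21. The other of the 2, KO replicate 2, had 143 TPM of these markers. Of the tumour epithelium markers, Krt8, Krt18 and Krt19 reached 269, 2.02 and 4.31 TPM in WT. In KO they reached 69.4, 23.7 and 27.9 TPM. The part of epithelial cells in the level of Itgb4 was not tested.

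Itgb5 (ENSMUSG00000022817, chromosome 16, 33829665 to 33949338), the other beta partner of Itgav in this list, was the lowest beta subunit. It ran from 4.97 to 46.3 TPM in WT (median 12.6) and from 3.25 to 31.5 TPM in KO (median 6.17). The means were 16.0 ± 11.6 TPM (SD, n = 11) and 11.2 ± 10.1 TPM (SD, n = 10). Itgb3 was above Itgb5 in all 21 libraries, by a ratio from 1.11 in WT replicate 2 of experiment 4 to 63.5 in KO replicate 1 of experiment 2, with a median of 12.0.

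Among the alpha subunits, Itga6 (ENSMUSG00000027111, chromosome 2, 71745616 to 71858416), the laminin-binding subunit, was the highest. It ran from 337 to 791 TPM in WT (median 499.7) and from 187 to 766 TPM in KO (median 598). It took 55.2 ± 4.38% (SD, n = 11) of the TPM of the 6 alpha members in WT and 56.1 ± 4.96% (SD, n = 10) in KO. The ratio of Itga6 to Itgb1 was 0.968 ± 0.229 in WT (SD, n = 11) and 1.07 ± 0.250 in KO (SD, n = 10), and ran from 0.514 to 1.46 over the libraries. The 2 transcripts were thus close to equal, and Itgb1 was the higher in 11 of 21 libraries.

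Itga5 (ENSMUSG00000000555, chromosome 15, 103344286 to 103366763), the fibronectin receptor subunit, ran from 74.9 to 321 TPM in WT (median 155) and from 40.4 to 259 TPM in KO (median 175). The collagen receptor subunits Itga1 (ENSMUSG00000042284, 114953096 to 115101964) and Itga2 (ENSMUSG00000015533, 114833081 to 114932100) lie on the minus strand of chromosome 13. Itga1 ran from 10.9 to 134 TPM in WT (median 99.6) and from 20.1 to 116 TPM in KO (median 90.0). Itga2 was lower, from 2.54 to 56.7 TPM in WT (median 20.4) and from 4.05 to 41.0 TPM in KO (median 32.1).

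Itgav (ENSMUSG00000027087, chromosome 2, 83724397 to 83806916), the shared partner of Itgb3 and Itgb5, ran from 41.5 to 166 TPM in WT (median 88.8) and from 25.8 to 157 TPM in KO (median 113). Itga9 (ENSMUSG00000039115, chromosome 9, 118606690 to 118901003), known for its part in lymphatic valves, ran from 23.1 to 115 TPM in WT (median 65.4) and from 7.04 to 111 TPM in KO (median 82.2). Lymphatic endothelial markers, a list of 6 genes, summed to 17.4 to 205 TPM in WT and 12.7 to 181 TPM in KO. Their part in the level of Itga9 was not tested.

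The order of the WT means was Itgb1, Itga6, Itga5, Itgb3, Itgav, Itga1, Itga9, Itgb4, Itga2 and Itgb5. Only 2 steps between neighbours held in all 21 libraries. Itga6 was above Itga5 throughout (3.29 times as high in WT, geometric mean of 11 ratios), and Itgb4 was above Itga2 throughout (2.92 times as high in WT). Itga5 was above Itgb3 in 19 libraries and Itgb3 above Itgav in 18. The other steps (Itgb1 over Itga6, Itgav over Itga1, Itga1 over Itga9, Itga9 over Itgb4 and Itga2 over Itgb5) held in 11 to 14 libraries. Neither these nor the step from Itgb3 to Itgav (mean log2 ratio 0.37, SD 0.97, in WT) exceeded the spread between libraries.

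**Figure D1:**
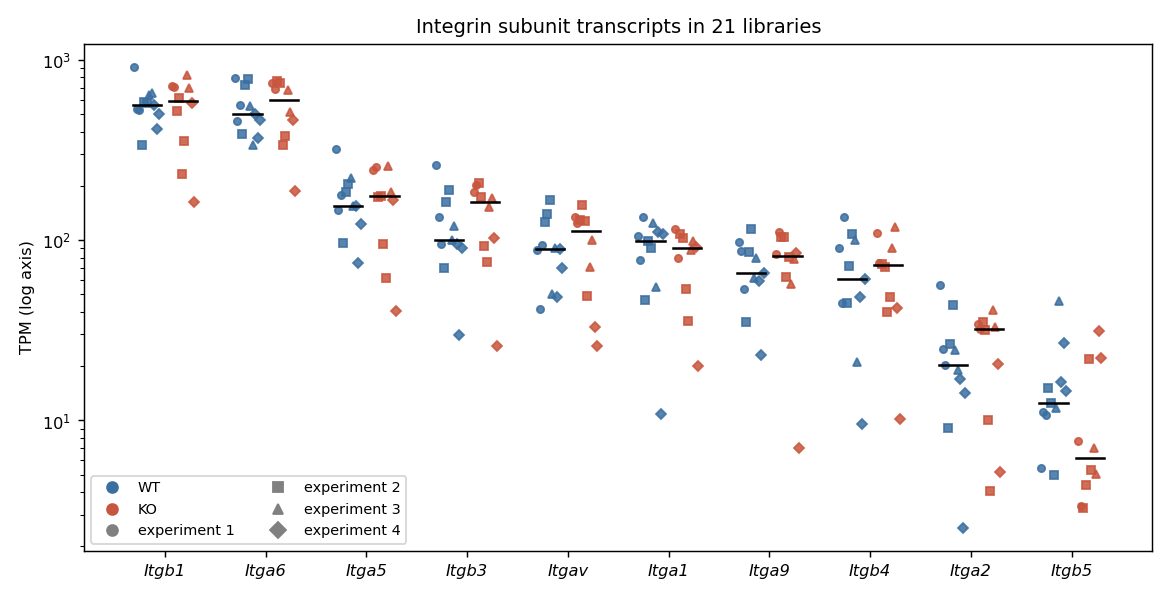
TPM of the 10 members on a log axis, with 1 point for each of the 21 libraries, WT in blue and KO in red, the experiment by symbol, and the median of each genotype as a bar. Itgb1 and Itga6 sit together at the top, and the lowest points of Itgb3, Itga1, Itgb4 and Itga9 are libraries of experiment 4.

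**Figure D2:**
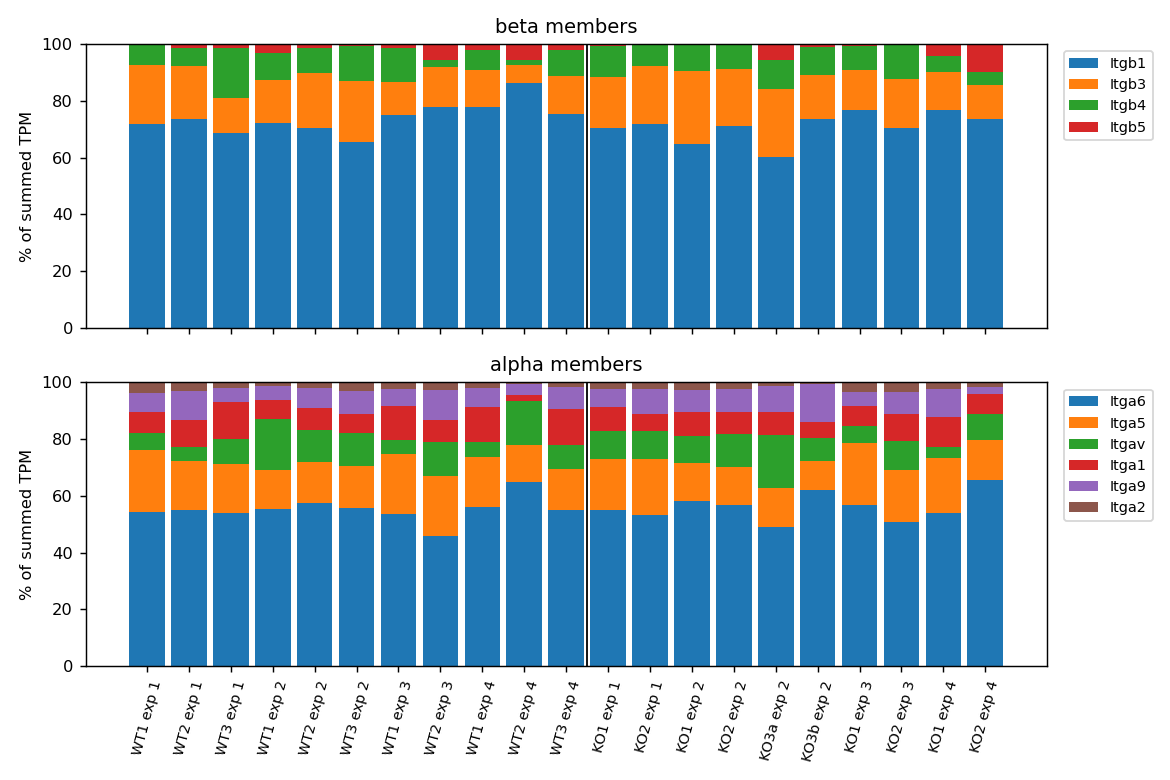
Share of each library's summed TPM taken by the 4 beta members (top) and by the 6 alpha members (bottom), with the 11 WT libraries left of the black line and the 10 KO libraries right of it. Itgb1 took from 60.1% to 86.3% of the beta sum and Itga6 from 45.8% to 65.5% of the alpha sum.

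No member passed the threshold between KO and WT. The comparison asked whether deletion of Shb in endothelium changes these transcripts. In limma on log2(TPM + 1), with experiment as a block, 0 of the 10 members had an adjusted p under 0.05, where 1 of all 13503 genes (0.00741%) did. At an unadjusted p under 0.05 there were 0 members as well, against 5.88% of all genes tested. The differences were below 0 in 7 of 10 members and in 64.0% of all genes, with medians of -0.077 for the members and -0.11 for all genes.

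The largest difference among the members was that of Itgb5. It was -0.57 on the log2 scale (SE 0.36, 95% interval -1.31 to 0.16, adjusted p = 0.836 in limma), with both genotypes spanning overlapping ranges. Itgb1 differed by -0.16 (interval -0.66 to 0.34), Itga6 by -0.054 (-0.55 to 0.44) and Itga5 by -0.12 (-0.68 to 0.44). These 3 are the subunits of the main laminin and fibronectin receptors, and their intervals reach less than 1 log2 unit either way. For the other 6 members the differences lay between -0.15 (Itgav, interval -0.71 to 0.41) and 0.11 (Itgb3, interval -0.49 to 0.72). The widest interval was that of Itga2, from -0.77 to 0.86. Adjusted p over the 10 members in limma ran from 0.836 to 0.995, and a p that misses the threshold does not show that levels were equal. Scaling a library moves all its genes together, so the signs of small differences follow the scaling. With a common median the median of all genes was -0.0063 and 4 of 10 members were below 0. Relative to the pan-endothelial markers it was -0.28 and all 10 were below 0.

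**Figure D3:**
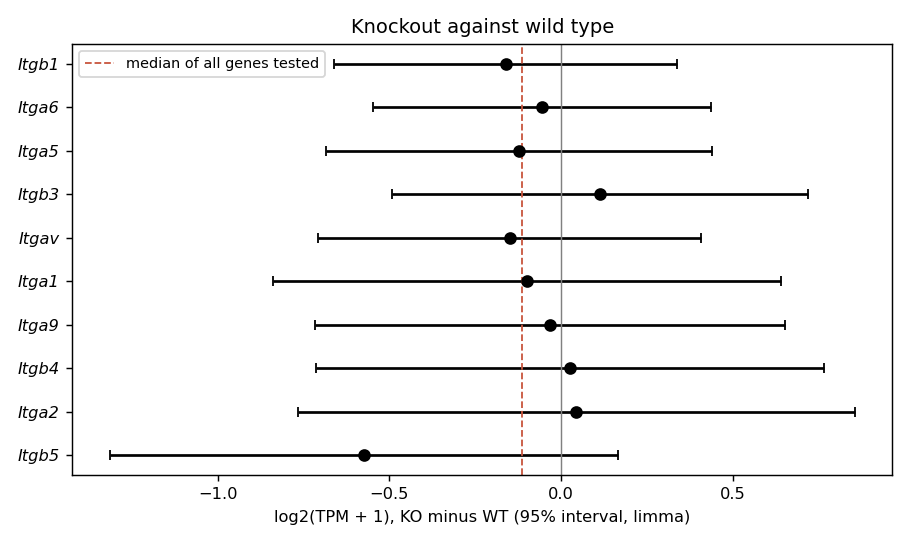
Difference between KO and WT in log2(TPM + 1) for each member, as the limma estimate (point) with its 95% interval (bar), and the median of all 13503 genes as a dashed line at -0.11. All 10 intervals include 0, and Itgb5 is the farthest from it.

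Between experiments the sign of the KO difference changed for every member, where KO stands for the libraries so labelled, since Shb did not separate the genotypes in experiments 1 and 3. None was below WT in all 4 experiments, where 10.9% of all genes were, and none was above in all 4, where 3.49% were. The median difference of the members was 0.23, -0.29, 0.28 and -0.49 on the log2 scale in experiments 1 to 4. Over all genes it was 0.30, -0.18, 0.080 and -0.56, so the 2 medians had the same sign in each experiment. A test of whether the KO effect differed between experiments called 0 of the 10 members and 0% of all genes in limma at an adjusted p under 0.05. At an unadjusted p under 0.05 it called 1 member, Itgav, and 3.84% of all genes.

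Itgav was the member with separate groups in opposite directions. In experiment 1 it was at 134 and 125 TPM in KO and at 88.5, 41.5 and 94.2 TPM in WT, so both KO libraries were above all WT ones, a log2 difference of 0.87. In experiment 4 it was at 33.0 and 25.8 TPM in KO and at 48.3, 88.8 and 70.2 TPM in WT, so both KO libraries were below all WT ones, a log2 difference of -1.17. KO replicate 3b, if it belonged to experiment 4, would end that separation, since its Itgav level of 49.2 TPM was above the lowest WT value. KO libraries lay wholly above WT for 18.0% of all genes in experiment 1 and wholly below for 19.1% in experiment 4, and Itgav was the 1 member in each case. No member lay wholly below in experiment 1, where 3.35% of all genes did, or wholly above in experiment 4, where 1.61% did. In experiments 2 and 3 its differences were -0.42 and 0.32, with overlapping groups. The unadjusted p of the test between experiments was 0.0392 and the adjusted p 1.00 in limma.

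In experiment 3, with 2 libraries per genotype, Itgb5 was at 7.00 and 5.04 TPM in KO and at 11.7 and 46.3 TPM in WT. Its log2 difference there was -1.82, and it was the 1 member with KO wholly below WT, as 11.8% of all genes were. The WT value of 46.3 TPM came from replicate 2, the library highest in macrophage markers (6285 TPM) and fibroblast markers (695 TPM). Itgb1, Itgb3 and Itga2 lay wholly above WT in that experiment, as did 18.1% of all genes. In experiment 4 the Itgb5 difference had the opposite sign, 0.49. Within experiment 2 no member had separate groups, where 4.91% of all genes were wholly below and 1.63% wholly above.

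Levels were also compared between experiments, with genotype as a term of the same fit. In the limma F test across experiments, 2 of the 10 members had an adjusted p under 0.05 (Itgb3 and Itgav), where 29.1% of all genes did. At an unadjusted p under 0.05 there were 6 members, against 46.6% of all genes. Mean log2(TPM + 1) of Itgb3 was 7.38, 7.01, 7.07 and 5.90 in experiments 1 to 4 (adjusted p = 0.0409 in limma). For Itgav the means were 6.50, 6.93, 6.26 and 5.62 (adjusted p = 0.0413 in limma). In WT alone its means were 74.7, 144, 70.2 and 69.1 TPM in experiments 1 to 4. In KO alone they were 129, 116, 85.6 and 29.4 TPM. The WT mean of experiment 4 was thus close to those of experiments 1 and 3. In TPM, Itgb3 ran from 26.0 to 102 in experiment 4 and from 95.7 to 261 in experiment 1. Itgav ran from 126 to 166 TPM in 6 of the 7 columns headed experiment 2 and was at 49.2 TPM in KO replicate 3b. All other members except Itgb5 also had their lowest mean in experiment 4, without passing (limma adjusted p from 0.0608 to 0.313).

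Itgb5 went the other way, with means of 3.02, 3.15, 3.71 and 4.49 (adjusted p = 0.0869 in limma). It ran from 14.6 to 31.5 TPM in experiment 4 and from 3.34 to 11.2 TPM in experiment 1. Its ranges in experiment 2 (3.25 to 21.9 TPM) and experiment 3 (5.04 to 46.3 TPM) overlapped both. The calls across experiments depended on the scaling and on single libraries. With quantile normalization neither Itgb3 nor Itgav passed (limma adjusted p = 0.233 and 0.173), and Itga6 and Itgb5 did. With a common median neither passed (limma adjusted p = 0.208 and 0.152), and Itgb5 did. Without the 3 libraries lowest in Pecam1, 0 members passed. The same held when any one of these was left out alone: WT replicate 1 of experiment 1, KO replicate 1, KO replicate 2, WT replicate 2 or WT replicate 3 of experiment 2, KO replicate 1 of experiment 3, or KO replicate 2 of experiment 4. Placing KO replicate 3b in experiment 4 gave 4 members (Itga2, Itga5, Itgav and Itgb3), and placing 3a there gave 1 (Itgb5).

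**Figure D4:**
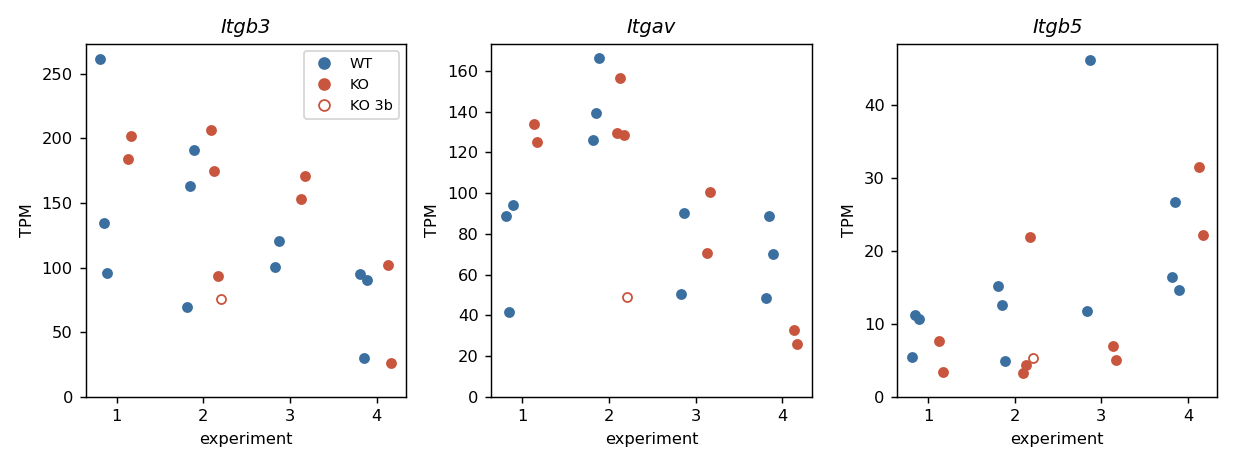
TPM of Itgb3, Itgav and Itgb5 by experiment, each panel with its own linear axis from 0, with 1 point per library, WT in blue and KO in red. The open circle is KO replicate 3b, the second column headed as KO replicate 3 of experiment 2. The lowest values of Itgb3 and of Itgav are in experiment 4, and the 3 lowest Itgb5 values are KO libraries of experiments 1 and 2.

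The members fell into 3 patterns between libraries. Likeness was measured as Pearson's r of log2(TPM + 1) over the 21 libraries after the means of experiment and genotype were removed. It is a description, since the libraries share their depth and composition across all genes. The 28 pairs among 8 members (all but Itgav and Itgb5) had a median r of 0.77, from 0.56 to 0.93. The 8 pairs of these with Itgav had a median of 0.31, from 0.11 to 0.46. All 9 pairs with Itgb5 were below 0, with a median of -0.44, from -0.64 (with Itga6) to -0.16 (with Itgav).

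These values stood beside a general likeness in the table. The median r with all other 13502 genes was 0.46 for Itgb1, 0.34 for Itgav and -0.27 for Itgb5. With the libraries set to a common median, the median over the 28 pairs was 0.62 and over the 9 pairs with Itgb5 was -0.45, and the pairs with Itgav had a median of -0.18 in place of 0.31. Without the 3 libraries lowest in Pecam1 the 3 medians were 0.72, 0.46 and -0.46, and 1 of the 28 pairs was then below 0. The opposite sign of Itgb5 was thus present in each of these settings, and the sign of Itgav was not.

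**Figure D5:**
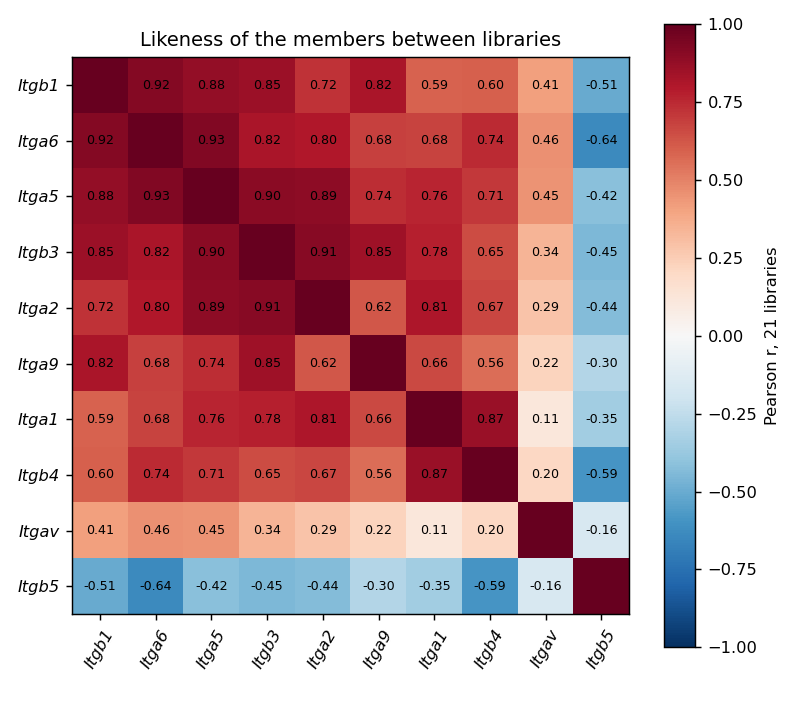
Pearson's r between members over 21 libraries, after removal of experiment and genotype means, with red above 0 and blue below. The block of 8 members at the upper left is red throughout, Itgav is paler and Itgb5 is blue in every pair.

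Within the group of 8, the pairs most alike were Itga6 with Itga5 (0.93) and with Itgb1 (0.92). Itgb1 and Itga5, both subunits of the fibronectin receptor, stood at 0.88, and Itga1 and Itgb4 at 0.87. Itgb3 was more like Itga2 (0.91) than like Itgav (0.34), its partner subunit. Itgb4 and its only partner Itga6 stood at 0.74.

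The tested genes most like each member were as follows. Itgb1 was most like Arf1 (r = 0.97), which encodes a small GTPase of Golgi transport, then Ncstn and Tmem184b. Itga6 was most like Nedd4 (0.95), which encodes a ubiquitin ligase, and Lamc1 (0.95), a laminin chain gene, then Cdh13. Itga5 was most like Actn4 (0.97), which encodes an actin crosslinker of focal adhesions, then Col18a1 and Cpd. Itga1 was most like Pros1 (0.98), Fat4 (0.97) and Tek (0.97), the last an endothelial receptor and one of the pan-endothelial markers. For Itgb3 they were Kctd17, Rhoc and Tpm4 (0.96 to 0.97). The remaining sets were Sptbn1, Zbtb46 and Arhgef15 for Itgb4, Cables1, Prrg3 and Aes for Itga2, and Fes, Rbm10 and Pitpna for Itga9, with r from 0.92 to 0.95. For Itgav they were Pabpc4, Brms1l and Mapk6, at 0.89 to 0.90.

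Itgb5 was most like F7 (0.80), the gene of coagulation factor VII, Pdpn (0.80) and Col1a2 (0.76), the last 2 of which belong to the fibroblast marker list. Pdpn is also in the lymphatic endothelial list. The r of Itgb5 with the mean of the fibroblast markers was 0.78. Dropping WT replicate 2 of experiment 3 lowered that value to 0.66. Placing KO replicate 3b in experiment 4 gave 0.57, keeping experiment and genotype means gave 0.53, and a common median gave 0.82. In a separate comparison of marker lists, Itgb5 stood at 0.74 with fibroblast, 0.63 with macrophage and 0.50 with pan-leukocyte markers. It was at 0.50 with platelet, 0.49 with tumour epithelium and 0.21 with erythroid markers. With pericyte and lymphatic endothelial markers the r of Itgb5 was -0.19 and -0.51. With the pan-endothelial mean it was -0.40, where Itga1 stood at 0.96 and Itgav at -0.00035. Without the 3 libraries lowest in Pecam1 these were -0.67 for Itgb5, 0.85 for Itga1 and 0.38 for Itgav, and with a common median Itgav was at -0.44.

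The levels of Itgb5 in single libraries lay beside those markers as follows. The highest, 46.3 TPM in WT replicate 2 of experiment 3, was in the library with the most fibroblast marker TPM (695). The next, 31.5 TPM in KO replicate 1 of experiment 4, was in a library with 33.2 fibroblast TPM, 25.8 macrophage TPM (the lowest of the 21) and 0 tumour epithelium TPM. Then came 26.8 TPM in WT replicate 2 and 22.2 TPM in KO replicate 2 of experiment 4, with 138 and 38.0 fibroblast TPM. These had 768 and 260 macrophage TPM and 272 and 143 tumour epithelium TPM. Among the libraries named here, only KO replicate 1 of experiment 4 was low in fibroblast, macrophage and tumour epithelium markers alike. Summed fibroblast markers ran from 31.1 to 695 TPM in WT and from 10.2 to 162 TPM in KO. All 6 of the 9 that were tested had a difference below 0, with 2 at an unadjusted p under 0.05 in limma. Over all genes, 64.0% were below 0 and 4.93% were lower at that level. The part of fibroblast transcripts in the Itgb5 values was not tested.

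The 3 libraries lowest in Pecam1 separated some members and not others. Itgb3 was at 29.6, 26.0 and 69.7 TPM there, below all 18 other libraries (75.6 to 261 TPM). Itga9 was at 23.1, 7.04 and 35.3 TPM, also below all 18 (53.4 to 115 TPM). The libraries were picked by Pecam1, with which Itgb3 had an r of 0.81 and Itga9 of 0.75. The share of all genes that separate in this way was not counted, so the separation is not a result about these members. Itgb1 was at 416, 163 and 337 TPM, and only 1 of the 3 was below all the others (234 to 914 TPM). Itgav was at 88.8, 25.8 and 126 TPM, against a median of 92.2 TPM in the other 18. Itgb5 was at 26.8, 22.2 and 15.2 TPM, all above the median of 9.17 TPM in the others.

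Of the other integrin genes, Itga3, a laminin-binding partner of Itgb1, was the highest, at 155 ± 65.8 TPM (SD) over 11 WT libraries and 170 ± 61.7 TPM (SD) over 10 KO libraries, with a log2 difference of 0.063 (SE 0.23). Of the list of 9 subunits that holds Itga3, the next by their mean over all 21 libraries were Itga10 (3.87 ± 3.38 TPM, SD, n = 21) and Itgb7 (5.33 ± 6.16 TPM over 11 WT libraries against 0.994 ± 1.30 TPM over 10 KO libraries, SD). In the list of leukocyte and platelet subunits the highest were Itgam, at 17.7 ± 40.9 TPM, and Itgb2, at 14.7 ± 38.6 TPM (SD, n = 21). None of the 9 other subunits and none of the 8 leukocyte and platelet subunits passed in limma. At an unadjusted p under 0.05 there were 2 lower in KO among 5 tested of the first list and 1 among 4 tested of the second. Of all genes, 4.93% were lower at that level. The 2 were Itga4, highest in WT replicate 2 of experiment 3, and Itgb7, highest in WT replicate 2 of experiment 4. These libraries ranked 1 and 2 in pan-leukocyte marker TPM. The summed TPM of the 8 leukocyte and platelet subunits ran from 0.310 to 483 in WT and from 0.910 to 114 in KO, and Itgam and Itgb2 peaked at 184 and 179 TPM in WT replicate 2 of experiment 3. Pan-leukocyte markers summed to 115 to 3024 TPM in WT and 93.9 to 292 TPM in KO, with all 10 below 0, 8 of them at an unadjusted p under 0.05. Macrophage and monocyte markers summed to 47.0 to 6285 TPM in WT and 25.8 to 260 TPM in KO, also with all 10 below 0 and 7 at that level. Over all genes, 64.0% were below 0 and 4.93% were lower at that level. The part of leukocytes and macrophages in the integrin values was not tested.

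The proteins that act with integrins were read from 5 further lists, and 0 genes of any passed between KO and WT in limma. Over all genes tested 64.0% of differences were below 0, with a median of -0.11. Of 15 integrin activators and tail-binding proteins tested, 12 had a difference below 0, with a median of -0.25. Their highest transcripts were Flna, the actin crosslinker filamin A (525 ± 173 TPM over 11 WT libraries against 513 ± 209 TPM over 10 KO libraries, SD), Rasip1 and Tln1, which encodes talin. Tln1 was at 236 ± 55.0 TPM (SD) over 11 WT libraries and 238 ± 102 TPM (SD) over 10 KO libraries. Of 23 focal adhesion genes 11 were below 0, with a median of 0.0046, and Actn4, Tns1 and Actn1 were the highest. Actn4 was at 517 ± 180 TPM (SD) over 11 WT libraries and 540 ± 261 TPM (SD) over 10 KO libraries.

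Of 10 integrin-associated membrane proteins 8 were below 0 (median -0.25), 3 of them at an unadjusted p under 0.05, beside 64.0% of all genes below 0 and 4.93% lower at that level. Among the highest of this list, Cav1, Cd81 and Cd9, the tetraspanin gene Cd9 was at 214 ± 108 TPM (SD) over 11 WT libraries and 143 ± 61.8 TPM (SD) over 10 KO libraries. Its log2 difference was -0.47 (SE 0.22, adjusted p = 0.820 in limma). Ligand transcripts were also abundant in these libraries. The basement membrane collagens Col4a1 and Col4a2 stood at 2222 ± 1129 and 1589 ± 803 TPM in WT (SD, n = 11), and Hspg2, which encodes perlecan, at 918 ± 429 TPM. Their differences were 0.0032, 0.023 and -0.054 on the log2 scale. Of the 14 laminin and collagen ligands tested 5 were below 0, beside 64.0% of all genes. Among RGD and provisional matrix ligands 8 of 12 were below 0, with a median of -0.27 and 3 at an unadjusted p under 0.05, against the same shares of all genes (64.0% and 4.93%). Fn1, the fibronectin ligand of the Itga5 product, was at 464 ± 265 TPM (SD) over 11 WT libraries and 450 ± 203 TPM (SD) over 10 KO libraries, and Vwf and Thbs1 were next. In every one of these 5 lists the WT and KO sums overlapped.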

How the data were processed

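The deposited table holds TPM as the authors computed it (reads per gene length, scaled to a fixed total per library), in 21 libraries. It is a TPM table by its title and because its columns have nearly equal totals, per the file headers and values. Reads were assigned on GRCm38, as the submitters' processing notes list it. Which aligner, counter and annotation they used is not given in the sources used here. Depth cannot be read from TPM, so no counting interval is given, and a gene that takes much of a library lowers all others in it. Libraries were taken from column names.

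Genes at or above 1 TPM in 10 or more libraries were tested on log2(TPM + 1) with limma 3.58.1 (R 4.3.3, statmod 1.5.0; trended, robust prior), with genotype and experiment as terms, and Benjamini-Hochberg adjustment over all 13503 genes (threshold 0.05). The code was tested on simulated data. This scale understates changes of low genes. F tests addressed experiments and their interaction with genotype. Alternatives changed the pseudocount, filter, scaling, prior, blocks and libraries. Leaving out low-Pecam1 libraries in the likeness values was chosen after seeing the data. Members and lists were chosen with earlier results of these data known. Named genes are Shb, the members, up to 3 highest genes of each list, and the 3 genes most like each member (predicted gene models left out). Itga2b, Itgam and Itgb2 are among the 3 highest of their list. Coordinates are from GENCODE vM21, promoters from RefSeq.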

Additional observations from a re-analysis of the deposited data

Results flagged for a closer look

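Among the 10 KO libraries, KO replicate 2 of experiment 4 stood apart on the low side for 3 members, by the gap to its nearest neighbour as a share of the range of log2(TPM + 1) (Dixon's criterion). Itgb3 was at 26.0 TPM there and at 75.6 to 206 TPM in the other 9. Itgb4 was at 10.2 TPM, against 39.9 to 119 TPM. Itga9 was at 7.04 TPM, against 57.3 to 111 TPM. In all, 20 sets of values were examined (10 members in the 10 KO libraries and in the 4 of experiment 2), and chance marks about 1 in 20. Pecam1 was at 242 TPM in this library. Without it the KO means of Itgb3, Itgb4 and Itga9 were 151 ± 48.9, 74.4 ± 28.3 and 85.3 ± 18.5 TPM (SD, n = 9).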

How the results depend on the processing

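The count of members past the threshold between KO and WT was 0 in all 40 alternatives run, and Itgb5 was below 0 in all 40, from -0.90 to -0.27 (lowest adjusted p 0.603). The count of members at an unadjusted p under 0.05 was 1 with KO replicate 3a placed in experiment 4, without both columns headed KO replicate 3 of experiment 2, and without experiment 4. Over all genes the count called was 2 with a common median, with quantile normalization and with TPM rescaled over nuclear protein-coding genes, and 0 without experiment 1 and without experiment 2.

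Same-numbered libraries were not paired by the labels, and 2 of 10 same-numbered pairs had a correlation of deviations over 0.1 (from -0.20 to 0.36). With a replicate block the count over all genes was 0 in place of 1, no member passed, and Itga1 was at 0.095.

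The number of members differing between experiments was 0 with no filter, with TPM rescaled over protein-coding genes, relative to the pan-endothelial markers, with an untrended prior, without the 3 libraries lowest in Pecam1, without experiment 2 and without experiment 4. It was 1 with a common median, with 3a in experiment 4 and without experiment 1, and 4 with 3b in experiment 4, without both replicate 3 columns and without experiment 3. Leaving out 1 library at a time gave 0 to 3.

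Small differences between KO and WT changed sign, all without passing. A common median or the pan-endothelial scale shifts every gene's difference alike, and for the other settings the cause was not tested. With a common median Itga1 was 0.0077, Itga6 0.053 and Itga9 0.077, and 4 members were below 0. Quantile normalization gave Itga6 0.037 and Itga9 0.0063. Rescaled TPM gave 0.033 and 0.046, a pseudocount of 5 gave Itga9 0.0038, and no experiment block gave Itga9 0.042. Relative to the pan-endothelial markers Itga2 was -0.12, Itgb3 -0.055 and Itgb4 -0.14. Without the 3 low-Pecam1 libraries Itga2 was -0.090, Itga6 0.011, Itgav 0.036 and Itga9 0.081. Placing 3a or 3b in experiment 4 gave Itga6 0.00048 and Itga9 0.078. Without both columns Itga1 was 0.068, Itga5 0.062, Itga6 0.11 and Itga9 0.0054, with 3 members below 0. Without experiment 1 Itgb4 was -0.010. Without experiment 2 Itga5 was 0.021 and Itga6 0.029. Without experiment 3 Itga2 was -0.12 and Itgb4 -0.24. Without experiment 4 Itga2 was -0.011, Itga6 0.11, Itgav 0.16 and Itga9 0.21.

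Leaving out 1 library at a time gave ranges of -0.31 to 0.087 for Itga1, -0.12 to 0.24 for Itga2, -0.25 to 0.071 for Itga5, -0.14 to 0.10 for Itga6, -0.23 to 0.32 for Itga9, -0.26 to 0.034 for Itgb1, -0.0029 to 0.31 for Itgb3 and -0.20 to 0.24 for Itgb4, with 2 to 10 members below 0 and 0 or 1 at an unadjusted p under 0.05. The count of members below 0 was 2 without KO replicate 2 of experiment 4. No read depth is known for TPM, so the limit that depth sets on low members such as Itgb5 and Itga2 cannot be given.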
